A study of Homo sapiens with 120 samples.

Results

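The metallothionein genes MT1E, MT1F, MT1G, MT1H, MT1M, MT1X and MT2A, the metal-sensing transcription factor gene MTF1 and the zinc exporter gene SLC30A1 were followed through 5 chemical treatments of TK6 cells, a human B lymphoblastoid line. The genes were chosen by name, 9 of the 19775 genes with a probe set of their own, and each was read from its probe set with the highest mean over all arrays. TK6 cultures received 50, 100 or 200 µM formaldehyde, a reactive aldehyde that crosslinks proteins and DNA, 80, 160 or 320 µM methyl methanesulfonate (MMS), 1, 2 or 4 mM ethyl methanesulfonate (EMS), colcemid or vincristine for 4 h or 24 h. MMS and EMS are alkylating agents that differ in the methyl or ethyl group they transfer, and colcemid and vincristine are tubulin-binding drugs that block the mitotic spindle. The 2 spindle poisons are labelled 1, 2 and 4 µg/ml, and since the labels do not settle whether a decimal point was lost, these doses are called lowest, middle and highest. Untreated cultures were run beside every chemical at 4 h and at 24 h. The 120 arrays make 40 groups with 3 arrays in each, numbered as experiments 1 to 3. All groups are the same cell line, with no genetic change named in the labels.

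Metallothioneins are small cysteine-rich proteins that bind zinc, copper and cadmium and buffer the free zinc of the cell. MTF1 senses free zinc and binds metal response elements in the promoters of metallothionein genes and of SLC30A1, whose product carries zinc out through the plasma membrane. Released zinc therefore is known to raise metallothionein and SLC30A1 transcripts together, and metallothioneins also respond to glucocorticoids and oxidative stress.

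RefSeq promoters of build GRCh38.p14, each from 250 bases before to 50 after the transcription start, were at hand for 5 of the 9 genes: MT2A, MT1H, MT1X, MTF1 and SLC30A1. They were searched on both strands for the core of the metal response element, TGCACNC or TGCGCNC, and none of the matches overlapped another. MT2A and MT1H each held 8 matches, MT1X held 4, SLC30A1 held 2 and MTF1 held 0. Of 35116 promoters of the same length, 29.6% held at least 1 match, 8.6% at least 2 and 0.601% at least 4. The promoters of MT2A (chr16:56608334-56608633, plus strand), MT1X (chr16:56682220-56682519, plus strand) and SLC30A1 (chr1:211579112-211579411, minus strand) are shown 5′ to 3′. Whether the number of matches relates to the changes below was not tested. Capitals mark the matches.
MT2A: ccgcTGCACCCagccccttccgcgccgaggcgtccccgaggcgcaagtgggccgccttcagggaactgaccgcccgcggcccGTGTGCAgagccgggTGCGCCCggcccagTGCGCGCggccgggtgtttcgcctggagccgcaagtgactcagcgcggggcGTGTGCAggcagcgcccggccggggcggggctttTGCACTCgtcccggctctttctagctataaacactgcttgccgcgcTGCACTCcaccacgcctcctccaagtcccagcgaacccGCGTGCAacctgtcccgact
MT1X: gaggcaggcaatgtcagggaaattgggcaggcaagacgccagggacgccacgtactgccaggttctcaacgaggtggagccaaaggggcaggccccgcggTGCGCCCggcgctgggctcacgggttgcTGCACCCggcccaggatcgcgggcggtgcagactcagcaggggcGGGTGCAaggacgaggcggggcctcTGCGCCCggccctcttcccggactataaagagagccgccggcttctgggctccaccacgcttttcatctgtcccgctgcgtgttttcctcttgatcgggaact
SLC30A1: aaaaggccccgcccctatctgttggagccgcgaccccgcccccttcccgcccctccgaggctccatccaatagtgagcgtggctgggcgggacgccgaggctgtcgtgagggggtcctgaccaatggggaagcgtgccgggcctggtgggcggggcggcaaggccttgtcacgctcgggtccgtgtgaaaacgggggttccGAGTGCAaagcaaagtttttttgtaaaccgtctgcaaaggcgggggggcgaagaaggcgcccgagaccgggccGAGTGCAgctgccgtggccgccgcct
In SLC30A1 both matches read GAGTGCA on the strand shown, the core TGCACNC on the other strand, and begin 49 bases before and 24 bases after the start. A match is a stretch of letters, and no binding was measured.

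All values are deposited log2 signals of one probe set, and a difference of log2 signals is called a log2 change. A gene was called changed at an adjusted p under 0.05 in limma, adjusted over the 14023 genes that reached a log2 signal of 6.183 on at least 3 arrays. The p-values and SEs rest on the spread between the 3 experiments within a group, pooled over all groups of a fit and moderated over genes. Of the 9 genes 8 were tested. MT1M lay between 3.65 and 4.49 over the 120 arrays, below that limit on all of them, and was not tested. The probe sets of MT1E, MT1F, MT1G, MT1H, MT1X and MT2A all carry the Affymetrix suffix _x_at, which marks probes that may also match related sequences. Transcripts of these 6 genes therefore cannot be told apart with certainty, and their changes are not 6 independent observations. The other probe set of MT1G, with no such suffix, was below the limit on all arrays. All 6 B cell markers that had a probe set (MS4A1, CD79A, CD79B, PAX5, CD22 and EBF1) were over the limit on all arrays, against 1 of 6 T and NK cell markers, 2 of 7 monocyte and granulocyte markers and 2 of 7 epithelial and fibroblast markers.

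Untreated cells already differed between times. All 8 tested genes were lower at 24 h than at 4 h in all 5 sets of untreated cultures, while 14.9% of all tested genes were called lower in the formaldehyde set, 20.6% in the MMS set, 15.8% in the EMS set, 18.5% in the colcemid set and 16% in the vincristine set. MT1X fell by 0.80 on the log2 scale in the MMS set and by 0.54 in the colcemid set, its widest and smallest time differences. SLC30A1 fell by between 0.17 (EMS set, adjusted p = 0.0284) and 0.57 (colcemid set, adjusted p = 3.27e-07). Each set also had its own level. Untreated MT2A at 4 h averaged 13.46 ± 0.017 (SD, n = 3) in the MMS set and 13.49 ± 0.034 in the EMS set, against 12.99 ± 0.028 in the formaldehyde set. Changes were therefore computed against untreated cells of the same set and time, and the doses of 1 set and time share those untreated arrays.

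At 4 h the 8 tested genes gave 7 calls outside formaldehyde, 5 of them for SLC30A1. Under formaldehyde 0, 3 and 5 of the 8 were called at 50, 100 and 200 µM, where 0.82%, 40.7% and 53.8% of all tested genes were called. Under MMS 1 was called at each of 80, 160 and 320 µM (1.6%, 13.5% and 28.6% of all genes), and it was SLC30A1 each time. Under EMS 0, 1 and 3 were called at 1, 2 and 4 mM (0.143%, 1.06% and 9.6% of all genes). Colcemid and vincristine gave 0 calls by limma at any dose, with 1 of 24 tests at an unadjusted p under 0.05 for each drug; of all genes 0%, 0.0642% and 0.913% were called from the lowest to the highest colcemid dose, and 0%, 0.00713% and 0.25% under vincristine. The 8 formaldehyde calls at 4 h became 5, 4 and 4 without experiment 1, 2 or 3, and the 4 EMS calls became 1, 1 and 2.

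At 24 h the genes parted by chemical. Under formaldehyde 0, 1 and 7 of the 8 were called at 50, 100 and 200 µM (0%, 3.81% and 47.7% of all genes), all higher; at 50 µM 1 of the 8 had an unadjusted p under 0.05. Under MMS 5, 7 and 7 were called at 80, 160 and 320 µM (28.5%, 47.3% and 58.5% of all genes), 16 of the 19 calls lower. Under EMS 0, 1 and 6 were called at 1, 2 and 4 mM (24.3%, 34.6% and 51.5% of all genes), 5 of the 7 calls lower; at 1 mM 1 of the 8 had an unadjusted p under 0.05. Under colcemid 7, 7 and 8 were called from the lowest to the highest dose (37.3%, 37.7% and 36.4% of all genes), all higher. Under vincristine 8, 8 and 7 were called (37.4%, 36.9% and 35.7% of all genes), also all higher. The 19 MMS calls became 12 without experiment 1, and the 7 EMS calls became 4 without experiment 3. The effect of the highest dose differed between 24 h and 4 h in 3 of the 8 genes under formaldehyde, 6 under MMS, 5 under EMS, 7 under colcemid and 7 under vincristine, where 53.3%, 45.2%, 38.3%, 22.5% and 22.4% of all genes differed.

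**Figure D1:**
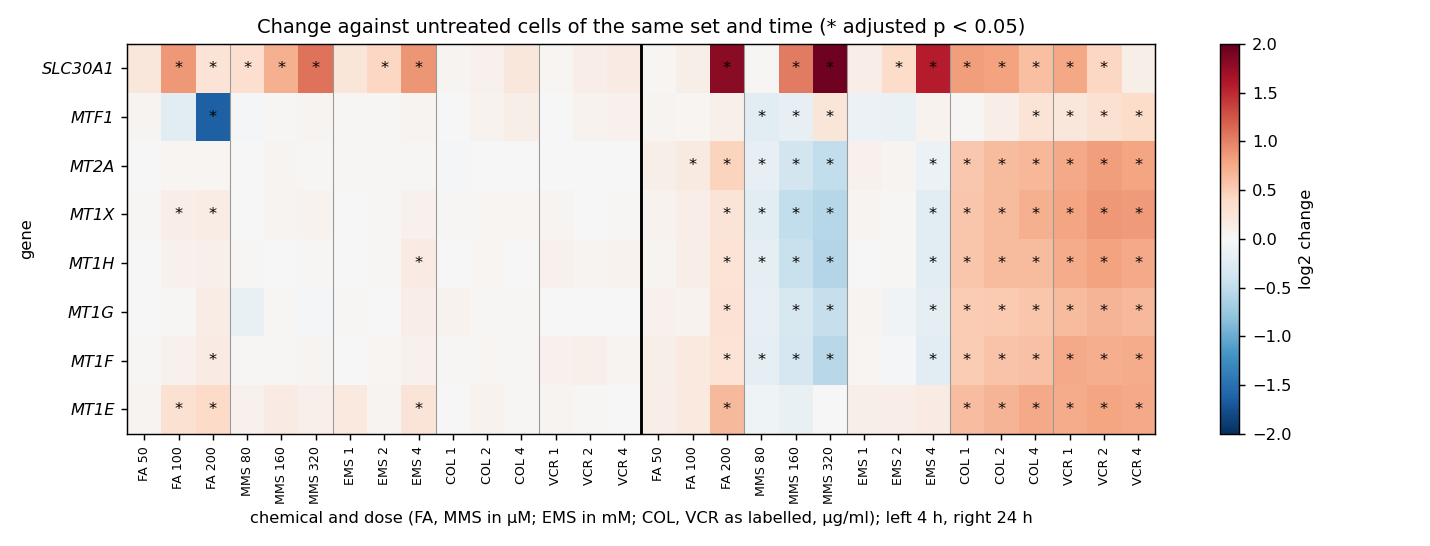
Log2 change against untreated cells of the same set and time, for 8 genes (rows) and 30 treatments (columns, 4 h left of the thick line, 24 h right), with an asterisk at an adjusted p under 0.05 in limma. At 24 h the 6 metallothionein rows are red under colcemid and vincristine and blue at 320 µM MMS, except MT1E, while the SLC30A1 row is red at the highest dose of formaldehyde, MMS and EMS.

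MTF1, the zinc sensor, stood out under formaldehyde at 4 h, and its transcript was back at the level of untreated cells at 24 h. At 4 h of 200 µM formaldehyde the log2 signals were 7.15, 7.28 and 7.01 in experiments 1 to 3, against 8.91, 8.76 and 8.66 in untreated cells. The groups did not overlap, and MTF1 fell by 1.63 ± 0.0946 (SE) on the log2 scale, to 0.322 times the untreated signal (adjusted p = 4.81e-12; 24.2% of all genes were called lower). At 100 µM it was 8.41, 8.75 and 8.56, a change of -0.21 (adjusted p = 0.0896) that was called with experiment number as a block, with all arrays in 1 fit and, at -0.18, with the mean of probe sets. The 200 µM arrays lay 1.43 below the 100 µM arrays (adjusted p = 6.45e-11), a contrast chosen after the values were seen (17.5% of all genes were called lower). Its other 2 probe sets were called lower too, by smaller amounts, -0.77 and -0.33.

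At 24 h of 200 µM MTF1 was 8.47, 8.52 and 8.29 in formaldehyde, against 8.29, 8.42 and 8.28 in untreated cells. These groups overlapped, and the change of 0.10 was not called (adjusted p = 0.439, 95% interval -0.10 to 0.29). The difference between the effect at 24 h and that at 4 h was 1.73 ± 0.134 (SE, adjusted p = 6.12e-10; 25.8% of all genes were called higher). The 4 h drop differed from the effect of the highest dose of each other chemical by between -1.75 (colcemid) and -1.69 (MMS), with adjusted p at or below 3.11e-14. Between 21.4% and 22.2% of all genes were called lower there, and the doses are not matched. Smaller changes were called elsewhere at 24 h. Vincristine raised MTF1 by 0.23, 0.31 and 0.37 from the lowest to the highest dose, and the highest colcemid dose by 0.27. Under MMS it was lower by 0.22 and 0.16 at 80 and 160 µM and higher by 0.24 at 320 µM, where its other 2 probe sets, at 0.05 and 0.09, were not called. The MMS calls at 80 µM (-0.25 to -0.19) and 160 µM (-0.20 to -0.12) were lost when any 1 experiment was left out, and that at 320 µM without experiment 1 (0.18).

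The metallothioneins, the buffer proteins, rose most in cells held 24 h in a spindle poison. MT2A, the most widely expressed isoform gene, had log2 signals of 13.23, 13.24 and 13.21 at the highest colcemid dose, against 12.57, 12.52 and 12.59 in untreated cells. At the highest vincristine dose it had 13.21, 13.19 and 13.12, against 12.39, 12.35 and 12.41 in untreated cells. In both sets all treated arrays lay above all untreated ones. The changes were 0.67 ± 0.0347 (SE) and 0.79 ± 0.048, or 1.59-fold and 1.72-fold.

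All 6 metallothioneins were called higher at all 3 doses of both drugs at 24 h. Of all genes 16.6%, 17.4% and 18% were called higher from the lowest to the highest colcemid dose, and 16.6%, 17.4% and 17.5% under vincristine. The 6 changes spanned 0.50 (MT1G, lowest dose) to 0.76 (MT1E, highest dose) under colcemid and 0.64 (MT1G, lowest dose) to 0.86 (MT1X, middle dose) under vincristine. Their median at the highest dose was 0.65 under colcemid and 0.75 under vincristine, against -0.002 and -0.001 over all tested genes. Between highest and lowest dose MT1E, MT1X and MT2A differed by 0.15, 0.15 and 0.13 under colcemid, and none of the 6 was called by limma under vincristine, where the differences spanned -0.01 to 0.05. Of all genes 13.7% and 13.6% were called between these doses. The 5 genes called between the colcemid doses, with MTF1 and SLC30A1, became 0, 0 and 2 without experiment 1, 2 or 3.

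The levels reached can be set beside those of untreated cells at the earlier time. MT1X stood at 12.62 ± 0.023 (SD) after 24 h of the highest colcemid dose, against 11.92 ± 0.057 in untreated cells at 24 h, and 12.46 ± 0.022 in untreated cells at 4 h. Under vincristine it stood at 12.62 ± 0.035 at 24 h, against 11.77 ± 0.045 in untreated cells at 24 h, and 12.42 ± 0.042 in untreated cells at 4 h. At 4 h neither drug moved a metallothionein past the threshold, and the changes at the highest doses lay between -0.01 and 0.07. ACTB 3′ minus 5′, a control measure of RNA quality, averaged 0.512 ± 0.022 (SD) at 24 h of the highest colcemid dose, against 0.54 ± 0.035 in untreated cells. For vincristine it was 0.499 ± 0.039, against 0.463 ± 0.033 in untreated cells.

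**Figure D2:**
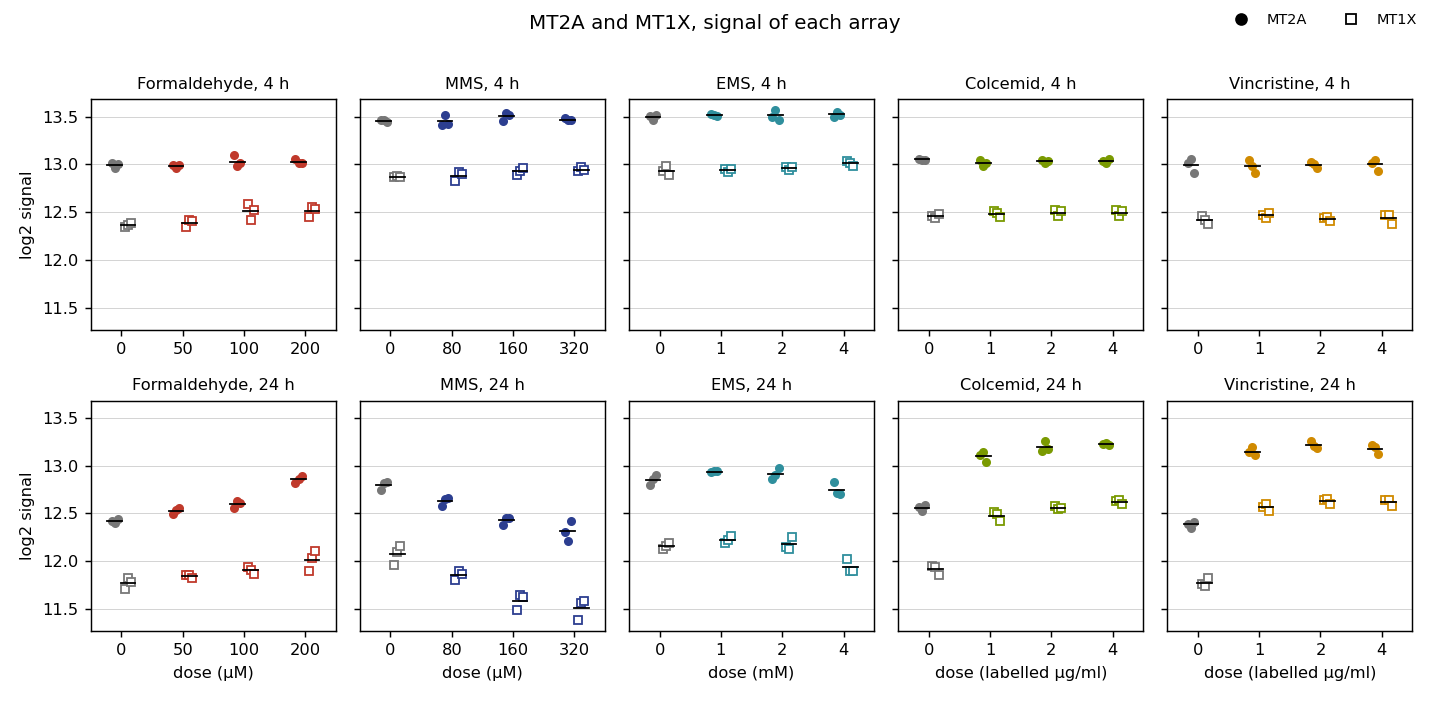
Log2 signal of MT2A (filled circles) and MT1X (open squares) on each array by dose, with 0 for untreated cells (grey) and bars at the mean of 3 experiments; the upper row is 4 h and the lower row 24 h. At 24 h both genes lie above untreated cells at every colcemid and vincristine dose and below untreated cells at 160 and 320 µM MMS.

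Under the alkylating agents the metallothioneins went the other way at 24 h. MT1X had log2 signals of 11.38, 11.56 and 11.58 at 320 µM MMS, against 11.96, 12.1 and 12.16 in untreated cells. No treated array reached an untreated one, and the change was -0.57 ± 0.0575 (SE, adjusted p = 2.04e-08). MT2A fell by 0.17, 0.37 and 0.49 at 80, 160 and 320 µM. Of the 6 genes 4, 5 and 5 were called lower at these doses, where 10.9%, 21.6% and 27.7% of all genes were. MT1E was not called at any of them (-0.09, -0.15 and -0.00), and at 320 µM its arrays spread from 9.44 to 10.03. At 80 µM the calls of MT1F, MT1H and MT2A were lost when any 1 experiment was left out, with changes between -0.24 and -0.15, and that of MT1X without experiment 2 (-0.23) or 3 (-0.18).

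Under EMS the changes were smaller in size. After 24 h of 4 mM MT1X was 12.02, 11.9 and 11.9, against 12.13, 12.16 and 12.19 in untreated cells. All treated arrays were lower, with a change of -0.22 ± 0.0411 (adjusted p = 9.43e-05). Of the 6 genes 5 were called lower, by 0.11 (MT2A) to 0.23 (MT1F and MT1H), where 23.6% of all genes were; MT1E was at 0.17 (adjusted p = 0.0534). Without experiment 3, MT1F, MT1G and MT2A were no longer called, at -0.18, -0.21 and -0.06. The call of MT1G was also lost without experiment 1 (-0.11) or 2 (-0.22), that of MT1F without experiment 1 (-0.22) and that of MT2A without experiment 2 (-0.09), while MT1E at 0.17 was called with experiment number as a block. At 1 and 2 mM the 6 changes lay between -0.07 and 0.13, and none was called by limma. After 4 h the probe sets used for the metallothioneins gave no call under MMS by limma, while the other probe set of MT1X was called at 320 µM (0.20, adjusted p = 0.0267). With the mean of probe sets MT1X (0.14) and MT1G (-0.20) were called at that dose. MT1E (0.26) and MT1H (0.16) were called higher at 4 h of 4 mM EMS, with MT1E at -0.18 and not called on its other probe set.

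RNA quality moved with the MMS result. Means of the ACTB 3′ minus 5′ difference were 1.06, 1.28 and 1.88 at 24 h of 80, 160 and 320 µM MMS, against 0.941 ± 0.079 (SD) in untreated cells. In the EMS set it was 0.664 ± 0.034 at 24 h of 4 mM, against 0.521 ± 0.072 in untreated cells. Its part in the fall of the metallothioneins was not tested. Of 6 B cell markers 6 were called lower at 24 h of 320 µM MMS (median change -0.56), and 4 were called lower and 1 higher at 4 mM EMS (median -0.37). Under 200 µM formaldehyde at 24 h, where the metallothioneins were higher, 5 of the 6 markers were called lower and 0 higher (median -0.37). Of all tested genes 27.7%, 23.6% and 23.9% were called lower in the MMS, EMS and formaldehyde comparisons. The median changes over all tested genes there were -0.039, -0.015 and -0.025. In these bulk cultures less transcript per cell cannot be told apart from fewer cells that express the gene.

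At 24 h of the highest dose formaldehyde raised the metallothioneins, on most but not all probe sets. At 4 h of that dose 3 of the 6 genes were already called higher, where 29.6% of all genes were. The effect at 24 h was called above that at 4 h for 1 of the 6, MT2A (0.40), where 25.8% of all genes were called higher. At 24 h of 200 µM MT2A had log2 signals of 12.82, 12.86 and 12.89, against 12.42, 12.4 and 12.44 in untreated cells. MT1E had 10.01, 10.01 and 10.17, against 9.47, 9.31 and 9.48 in untreated cells. Neither gene's groups overlapped, and the changes were 0.44 ± 0.0424 (SE, adjusted p = 2.14e-08) and 0.65 ± 0.0857 (adjusted p = 1.64e-06). All 6 genes were called higher, by 0.25 to 0.65, where 23.8% of all genes were. At 100 µM MT2A alone of the 6 was called (0.18, adjusted p = 0.0183), and it was not called when any 1 experiment was left out, at 0.15 to 0.20 (3.42% of all genes were called higher).

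At 24 h of 200 µM formaldehyde the other probe sets of MT1E and MT1F changed by 0.03 and 0.04 and were not called, and that of MT1X was called lower at -0.20 (adjusted p = 0.0187 in a fit of all single-symbol probe sets), while the probe set used for MT1X gave 0.25. Of the 9 metallothionein probe sets 6 were called higher and 1 lower. Under the highest dose of colcemid and of vincristine all 9 were called higher, and at 320 µM MMS 7 of 9 were called lower. ACTB 3′ minus 5′ averaged 0.768 ± 0.07 (SD) at 24 h of 200 µM formaldehyde, against 0.481 ± 0.024 in untreated cells, and its part was not tested. At 4 h formaldehyde gave small changes: MT1E rose by 0.31 and 0.38 at 100 and 200 µM, MT1X by 0.14 and 0.15, and MT1F by 0.17 at 200 µM. On the other probe sets MT1E was at 0.09 and 0.06 and MT1F, at 200 µM, at 0.10, none of them called, while MT1X was called at 0.23 and 0.17. The MT1F call was lost when any 1 experiment was left out (0.15 to 0.19), and that of MT1X at 200 µM without experiment 2 (0.13) or 3 (0.15).

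**Figure D3:**
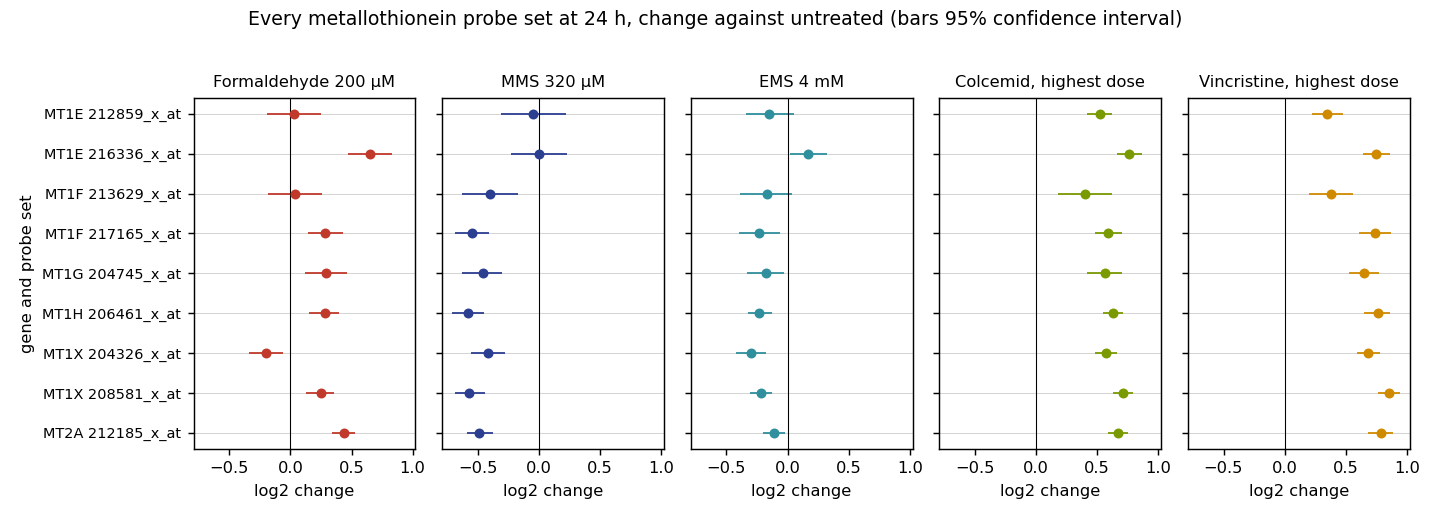
Log2 change at 24 h of the highest dose against untreated cells for each of the 9 metallothionein probe sets over the limit (rows), with the 95% confidence interval, in 5 panels by chemical. All 9 lie above 0 under colcemid and vincristine, while under 200 µM formaldehyde MT1X gives 0.25 on the probe set used here and -0.20 on the other.

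SLC30A1, the exporter, gave the largest changes of the 8 tested genes at 24 h under MMS, formaldehyde and EMS. At 320 µM MMS its log2 signals were 12.31, 12.35 and 12.31, against 10.4, 10.4 and 10.32 in untreated cells. At 200 µM formaldehyde they were 11.92, 11.65 and 11.97, against 9.99, 10.07 and 10.05 in untreated cells. At 4 mM EMS they were 11.64, 11.72 and 11.69, against 10.13, 10.13 and 10.07 in untreated cells. In each set the treated arrays lay far above the untreated ones, by 1.95 ± 0.0609 (SE) for MMS, 1.81 ± 0.09 for formaldehyde and 1.57 ± 0.057 for EMS. These are 3.86-fold, 3.5-fold and 2.98-fold, with adjusted p at or below 6.18e-13. Called higher in the same comparisons were 30.8%, 23.8% and 27.8% of all genes. A second probe set of SLC30A1 gave 2.20, 1.43 and 1.52. The ACTB 3′ minus 5′ difference was also higher in these treatments, at 1.88 for MMS, 0.768 for formaldehyde and 0.664 for EMS, against 0.941, 0.481 and 0.521 in untreated cells of those sets, and its part in the SLC30A1 change was not tested.

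The doses below the highest differed in steepness. MMS raised SLC30A1 by 0.02 at 80 µM, which was not called, and by 1.04 at 160 µM. EMS raised it by 0.37 at 2 mM, with 0.13 at 1 mM, which was called only with experiment number as a block. Formaldehyde gave 0.04 and 0.11 at 50 and 100 µM, neither called, against 1.81 at 200 µM. The difference between 200 and 50 µM was 1.76 ± 0.09 (adjusted p = 1.05e-12; 22.2% of all genes were called higher).

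The spindle poisons raised SLC30A1 as well at 24 h, and less at the higher labelled doses. Under colcemid it was 10.86, 10.94 and 10.84 at the lowest dose and 10.62, 10.69 and 10.62 at the highest, against 9.97, 10.06 and 10.09 in untreated cells. Under vincristine it was 10.81, 10.97 and 10.81 at the lowest dose and 10.16, 10.35 and 10.13 at the highest, against 10.08, 10.08 and 10.1 in untreated cells. The arrays of the highest and lowest dose did not overlap in either set. The changes against untreated cells were 0.84, 0.81 and 0.60 under colcemid, all called. They were 0.77, 0.41 and 0.12 under vincristine, the last not called (adjusted p = 0.247, 95% interval -0.04 to 0.29) though its arrays lay above the untreated ones; the second probe set was called at 0.20. The highest dose lay below the lowest by 0.65 under vincristine (log2 change -0.65 ± 0.0782, adjusted p = 1.01e-05; 5.44% of all genes lower) and by 0.24 under colcemid (-0.24 ± 0.0604, adjusted p = 0.0106; 5.51% lower). The colcemid difference was no longer called without experiment 1 (-0.24) or 2 (-0.23), and the second probe set gave -0.27.

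**Figure D4:**
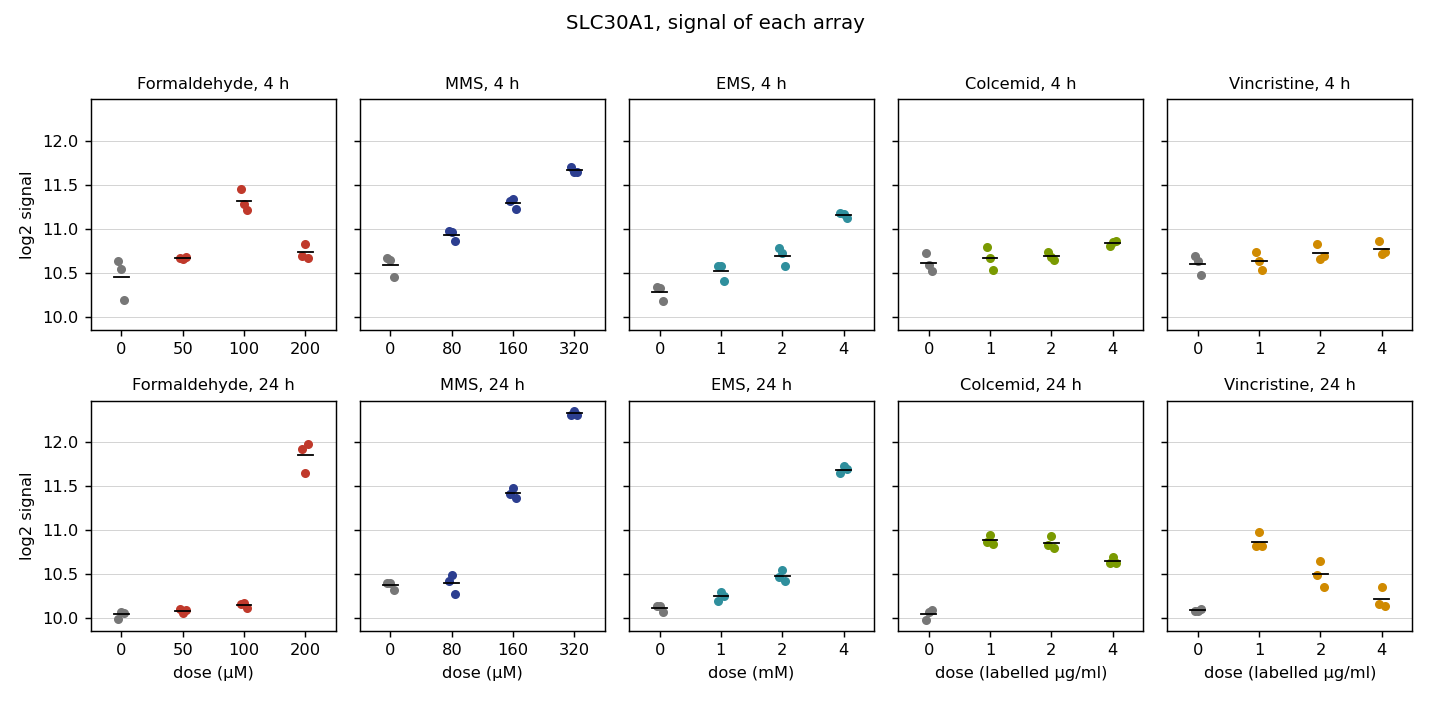
Log2 signal of SLC30A1 on each array by dose, with 0 for untreated cells (grey) and bars at the mean of 3 experiments; the upper row is 4 h and the lower row 24 h. At 24 h the signal climbs with dose to 12.32 under 320 µM MMS, and it falls with labelled dose under colcemid and vincristine; at 4 h of formaldehyde the 100 µM arrays lie above the 200 µM arrays.

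At 4 h SLC30A1 already answered the alkylating agents. At 320 µM MMS it was 11.7, 11.65 and 11.65, against 10.67, 10.64 and 10.45 in untreated cells, with changes of 0.34, 0.71 and 1.08 at the 3 doses, all called. At 4 mM EMS it was 11.18, 11.17 and 11.12, against 10.34, 10.32 and 10.18 in untreated cells, and the changes were 0.24, 0.42 and 0.88, the last 2 called, and with experiment number as a block all 3. The second probe set gave 0.32 at 320 µM MMS, against 1.08 on the probe set used, and 0.57 at 4 mM EMS, both called. Treated and untreated arrays did not overlap at any dose of either agent. Called higher at the highest doses were 15.3% of all genes under MMS and 5.55% under EMS.

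Under formaldehyde the 4 h response peaked at the middle dose. SLC30A1 was 11.45, 11.28 and 11.21 at 100 µM and 10.69, 10.83 and 10.67 at 200 µM, against 10.63, 10.54 and 10.19 in untreated cells. The 100 µM arrays lay above all others, with a change of 0.86 ± 0.09 (adjusted p = 1.14e-07; 20.9% of all genes were called higher). The 200 µM arrays lay 0.58 below the 100 µM arrays (log2 change -0.58, adjusted p = 1.99e-05; contrast chosen after the values were seen). The change at 200 µM, 0.27 (adjusted p = 0.0144), rests on the untreated array of experiment 3, and without that array it was 0.14 and not called; nor was it called without experiment 2 (0.27) or 3 (0.17). Under colcemid and vincristine SLC30A1 was not called by limma at 4 h. The highest colcemid dose had a change of 0.23 (adjusted p = 0.0951) that was called when experiment number was added as a block and, at 0.22, with quantile normalization repeated, and the second probe set gave -0.02.

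Ordered by level over all 40 groups, SLC30A1 was highest at 24 h of 320 µM MMS (12.32 ± 0.021, SD), and these arrays lay above all others. At 24 h of 200 µM formaldehyde (11.84 ± 0.17) and of 4 mM EMS (11.68 ± 0.04), and at 4 h of 320 µM MMS (11.67 ± 0.025), the arrays overlapped, so those 3 groups are not ordered beyond their spread. Next came 160 µM MMS at 24 h (11.42 ± 0.056), which overlapped with 100 µM formaldehyde at 4 h (11.31 ± 0.124). The lowest groups were untreated cells at 24 h of the formaldehyde set (10.04 ± 0.039) and the colcemid set (10.04 ± 0.061). The metallothionein mean of the 6 genes had another order, with 4 mM EMS at 4 h highest (12.13 ± 0.00957) and 320 µM MMS at 24 h lowest (10.88 ± 0.0565), the last overlapping with 160 µM MMS at 24 h (10.97 ± 0.0862). Both orders also carry the level of each set and time: the 6 changes at 4 h of 4 mM EMS against untreated cells of its own set lay between 0.03 (MT2A) and 0.26 (MT1E), and untreated cells at 4 h averaged 11.98 in the MMS set, against 11.52 in the formaldehyde set.

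The exporter and the buffer genes moved together under some chemicals and apart under others. At 24 h of the highest dose both moved up under formaldehyde and colcemid, SLC30A1 rose while 5 of 6 metallothioneins fell under MMS and EMS, and under vincristine the 6 metallothioneins rose with SLC30A1 at 0.12 and not called. Over the 30 changes against untreated cells, the 15 pairs among the 6 metallothioneins had Pearson correlations of 0.89 to 0.99. Metallothioneins and SLC30A1 had correlations of -0.19 to 0.20, and metallothioneins and MTF1 0.17 to 0.30. The 30 points share untreated arrays within each set and time, so these are descriptions without a p-value. The 6 metallothionein probe sets may also match related sequences, so their correlations with each other are not those of independent measurements.

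**Figure D5:**
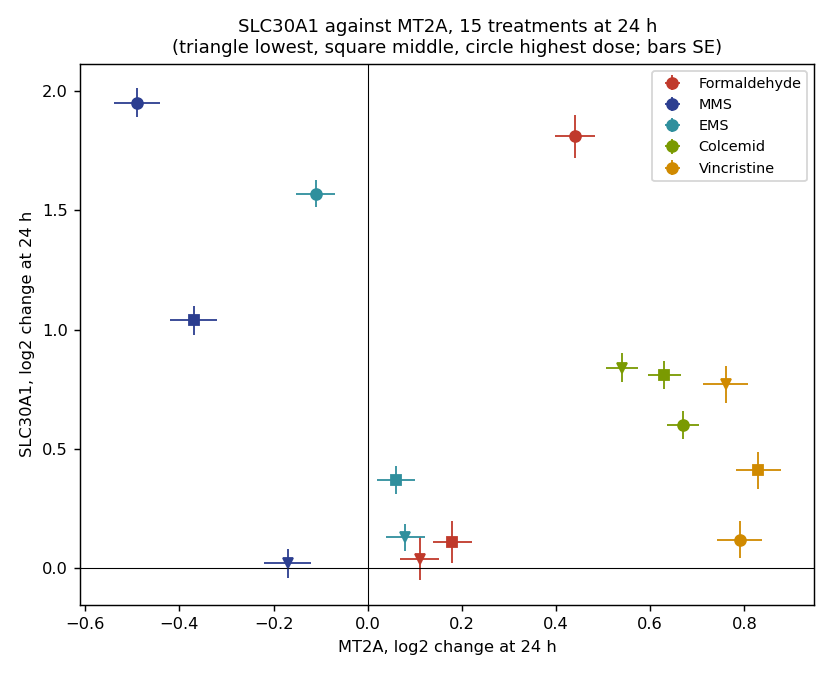
Log2 change of SLC30A1 (vertical) against that of MT2A (horizontal) for the 15 treatments at 24 h, coloured by chemical, with triangles, squares and circles for the lowest, middle and highest dose and bars for the SE. MMS at 320 µM lies at upper left (1.95 and -0.49), formaldehyde at 200 µM at upper right (1.81 and 0.44), and the highest vincristine dose at lower right (0.12 and 0.79).

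The difference between the formaldehyde effect and the effect of each other chemical was tested at the highest doses, which are not matched between chemicals. At 24 h the formaldehyde effect on the metallothioneins lay above that of MMS by 0.65 to 0.92 and above that of EMS by 0.47 to 0.54, and all 6 genes were called in both (14.4% and 10.6% of all genes were called higher). It lay below that of colcemid by 0.12 to 0.46 and below that of vincristine by 0.10 to 0.60, with 5 of 6 genes called in both and MT1E not called (15.8% and 16.3% of all genes were called lower). These differences rest on the probe sets used, and the formaldehyde effect on the other probe sets of MT1E, MT1F and MT1X was 0.03, 0.04 and -0.20.

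For SLC30A1 the differences ran otherwise. At 24 h the formaldehyde effect lay above that of colcemid by 1.20 ± 0.111 (SE, adjusted p = 4.55e-11; 16.9% of all genes higher) and above that of vincristine by 1.68 ± 0.122 (adjusted p = 6.99e-14; 18.2% higher). It was not called different from MMS, at -0.14 with a 95% interval of -0.36 to 0.08, or from EMS, at 0.23 with an interval of 0.01 to 0.45 (adjusted p = 0.12). At 4 h it lay below MMS by 0.81 (log2 difference -0.81, adjusted p = 1.43e-07) and below EMS by 0.60 (-0.60, adjusted p = 2.03e-05), where 21.4% of all genes were called lower in each.

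Other genes of zinc transport followed no single direction. At 24 h of the highest dose 47.7% of all tested genes were called under formaldehyde, 58.5% under MMS, 51.5% under EMS, 36.4% under colcemid and 35.7% under vincristine, and counts of list genes at 24 h are to be read against these shares. Of 7 tested zinc exporter genes besides SLC30A1, 1 was called higher and 3 lower at 24 h of 200 µM formaldehyde (median change 0.04, against -0.025 over all tested genes), and 2 higher and 1 lower at 320 µM MMS and at 4 mM EMS (medians 0.04 and 0.11). At the highest dose of each spindle poison 2 were higher and 0 lower. TMEM163, a vesicular and plasma membrane zinc exporter, rose by 1.16 under formaldehyde (adjusted p = 6.07e-07), 0.53 under MMS, 0.26 under EMS, 0.61 under colcemid and 0.62 under vincristine at 24 h. SLC30A7, which loads zinc into the early secretory pathway, fell by 1.27 at 4 h of 200 µM formaldehyde (adjusted p = 1.19e-11). In that comparison 24.2% of all genes were called lower. At 24 h SLC30A7 was at 0.17 and not called. SLC30A5 fell by 0.38 and 0.37 at 4 h and 24 h of formaldehyde.

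Zinc importers were called in both directions, in numbers near the share of all genes under formaldehyde (6 of 13, against 47.7%) and MMS (8 of 13, against 58.5%). Of 13 tested, 3 were called higher and 5 lower at 24 h of 320 µM MMS (median -0.09, against -0.039 over all genes), 3 and 6 at 4 mM EMS (median -0.14, against -0.015), 2 and 4 at 200 µM formaldehyde (median -0.06), and 4 and 3 under each spindle poison. SLC39A10, a plasma membrane zinc importer of B cells, fell by 2.21 under MMS (adjusted p = 7.92e-16) and by 1.66 under EMS (adjusted p = 8.49e-14), and was at 0.13 and not called under formaldehyde. Under colcemid and vincristine it fell by 0.36 and 0.54. SLC39A4, another importer of the cell surface, fell by 1.08 under MMS, 1.02 under EMS and 0.71 under formaldehyde. SLC39A11 fell by 0.88 under MMS, 0.58 under EMS and 0.86 under formaldehyde, and rose by 0.20 and 0.27 under colcemid and vincristine. SLC39A14, which also carries iron and manganese, fell by 0.74, 0.38 and 0.54 under MMS, EMS and formaldehyde.

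Of the other metallothionein genes 3 of 7 had a probe set and were tested, and 1 of the 3 was called in each set at 24 h. MT1HL1, a metallothionein 1H-like gene, was that gene: 0.39 under formaldehyde, -0.57 under MMS, -0.21 under EMS, 0.62 under colcemid and 0.77 under vincristine at 24 h of the highest dose. Whether its probes also match the members was not tested. Among copper genes, SLC31A2, a copper transporter of late endosomes and lysosomes, rose by 1.56 under MMS, 1.04 under EMS and 0.90 under formaldehyde at 24 h, and by 0.37 under each spindle poison. ATP7A, the copper-exporting ATPase, rose by 0.98 under MMS and 1.07 under EMS. Of 11 copper genes 5 were called higher and 1 lower at 24 h of 320 µM MMS (median 0.15, against -0.039 over all genes), with the same counts at 4 mM EMS (median 0.11). These 6 of 11 are near the shares of all genes called, 58.5% and 51.5%. The counts were 5 and 3 under formaldehyde, 4 and 1 under colcemid and 3 and 2 under vincristine. SCO2, a copper chaperone of cytochrome c oxidase, was called lower in all 5 sets, with changes from -1.23 under MMS to -0.40 under colcemid.

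Lists of glutathione and thiol, glucocorticoid-responsive and iron genes gave mixed counts at 24 h. They stand again beside 47.7%, 58.5%, 51.5%, 36.4% and 35.7% of all genes called at 24 h under formaldehyde, MMS, EMS, colcemid and vincristine. HMOX1, the oxidative stress gene for haem oxygenase 1, rose by 2.42 at 24 h of 320 µM MMS and 1.64 at 4 mM EMS, and fell by 0.33, 0.39 and 1.27 under formaldehyde, colcemid and vincristine. SLC7A11 of the same list rose at 24 h by 0.56, 1.02 and 1.17 under formaldehyde, colcemid and vincristine, and by 0.70 under EMS. Under MMS it was at 0.14 and not called. GSS rose by 0.73 under formaldehyde, 1.36 under MMS, 1.29 under EMS and 0.19 under colcemid, and was not called under vincristine (0.12). SRXN1 fell by 0.63 under formaldehyde and was not called elsewhere at 24 h. Of 9 glutathione and thiol genes 4 were higher and 1 lower under MMS at 24 h, 6 and 1 under EMS, 3 and 5 under formaldehyde, 3 and 4 under colcemid and 2 and 5 under vincristine. At 4 h of the highest dose 7 were higher and 0 lower under MMS, and 5 and 0 under EMS. Of all genes 15.3% and 5.55% were called higher there. Under formaldehyde 2 were higher and 4 lower at 4 h, and each spindle poison gave 0 calls. At 4 h of 320 µM MMS HMOX1 rose by 2.70, SRXN1 by 1.00 and SLC7A11 by 0.96. Glucocorticoid-responsive TSC22D3 rose by 1.20 under formaldehyde, 1.06 under MMS, 1.24 under EMS and 1.22 under colcemid, and was at 0.14 and not called under vincristine. SGK1 of the glucocorticoid list rose by 0.75, 0.59, 1.35, 0.76 and 0.71 under formaldehyde, MMS, EMS, colcemid and vincristine, all called. DDIT4 of that list fell by 0.17 under MMS and 0.29 under vincristine and rose by 0.33 under EMS. Of the 6 tested genes of that list 3 were higher and 1 lower under formaldehyde and under colcemid, 2 and 4 under MMS, 4 and 1 under EMS and 2 and 2 under vincristine. Of 11 iron genes 3 were higher and 3 lower under formaldehyde, 3 and 6 under MMS, 2 and 5 under EMS and 1 and 6 under each spindle poison. The 6 of 11 iron genes under formaldehyde and the 5 of 9 glutathione and thiol genes under MMS are near the shares of all genes called, 47.7% and 58.5%. NCOA4, the receptor that delivers ferritin for breakdown, rose by 0.83 under formaldehyde, 0.94 under MMS and 0.93 under EMS. The iron gene SLC25A37 went the other way, by -0.51 under formaldehyde, -0.61 under MMS, -0.66 under EMS, -0.79 under colcemid and -0.82 under vincristine. FBXL5 was also lower, by -0.29, -0.35, -0.31, -0.33 and -0.49 in the same order. At 4 h of 200 µM formaldehyde FBXL5 was at -1.50 and SLC11A2 at -1.54.

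Over the 30 changes the tested genes most like SLC30A1 by Pearson correlation were GTF2B (0.935), TDP2 (0.924), SARS1 (0.916), CGRRF1 (0.912) and SEC61A1 (0.912). Most like the mean change of the 6 metallothioneins, members left out, were MT1HL1 (0.992), KCNMB1 (0.973), ATP5MK (0.961), CD44 (0.958) and CCL5 (0.948). These genes were chosen for that likeness, so their values are a description. GTF2B, a general transcription factor of RNA polymerase II, changed by 1.20 at 24 h of 320 µM MMS, 0.87 at 200 µM formaldehyde and 0.33 at the highest vincristine dose. CD44, a hyaluronan receptor, changed by 1.72 at the highest vincristine dose and -1.50 at 320 µM MMS, a wider span than that of any metallothionein member in these 2 comparisons.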

How the data were processed

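Total RNA of 120 TK6 cultures was measured on Affymetrix HG-U133 Plus 2 arrays. The deposited values are log2 signals per probe set, made by the authors with RMA, per the submitters' processing notes; whether all arrays were normalized together is not given in the sources used here. Array medians lay between 6.131 and 6.241, and precision is limited by how many arrays a group has.

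Of 54675 probe sets, 41091 name a single gene in the platform's table, 1801 several and 11721 none, besides 62 controls. The brightest probe set stood for each gene. A gene was tested if 3 arrays reached 6.183, the median probe set mean. Each chemical's 24 arrays were fitted in limma 3.58.1 (R 4.3.3) as 8 group means; differences between chemicals used 48 arrays. Two-sided moderated p-values were adjusted by Benjamini and Hochberg over 14023 genes in each comparison. The script was tested on simulated data. Tables and figures used python 3.11.15, pandas 2.3.3, numpy 2.4.6 and matplotlib 3.10.9.

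The genes and lists were chosen with earlier results of these data known. Text names the 9 members and the 5 genes most like SLC30A1 and the metallothioneins. From each list it names some or all of up to 4 called genes with the largest change at the highest doses. Lists cover zinc exporters and importers, other metallothioneins, copper, iron, glutathione and thiol, and glucocorticoid genes.

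Experiment numbers in the labels were taken to pair the arrays. Deviations of same-numbered arrays from their group means correlated above 0 in the mean in 29 of 30 comparisons (median 0.285), and every pair exceeded 0.1 in 19. The median for other numbers, -0.141, follows from taking deviations from group means and is no separate baseline. The main fit held no term for experiment number, so its p-values are unpaired, and the pairing was used in the replicate block. Alternatives were a replicate block, no filter, the mean of probe sets, each probe set alone, repeated quantile normalization, all arrays in a single fit, each experiment left out, and 1 untreated formaldehyde array left out. The contrast of 200 and 100 µM formaldehyde at 4 h was added after seeing the data.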

Additional observations from a re-analysis of the deposited data

Results flagged for a closer look

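The effect of the highest dose differed between 24 h and 4 h, by limma's test of that difference (24 h effect minus 4 h effect, adjusted p under 0.05), in 28 of 40 tests of the 8 genes in 5 sets. Under formaldehyde the differences were 1.73 for MTF1, 1.53 for SLC30A1 and 0.40 for MT2A. Of all tested genes 53.3% differed in that set.

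Under MMS SLC30A1 differed by 0.87, and the metallothioneins went the other way, with MT1X at -0.64, MT1H at -0.61, MT1F at -0.60, MT2A at -0.50 and MT1G at -0.42 (45.2% of all genes differed). Under EMS SLC30A1 differed by 0.70, MT1H by -0.39, MT1F by -0.32, MT1G by -0.31 and MT1X by -0.30 (38.3% of all genes differed).

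Under colcemid all differences were positive: MT1E at 0.74, MT2A at 0.68, MT1X at 0.67, MT1H at 0.63, MT1F at 0.57, MT1G at 0.53 and SLC30A1 at 0.38 (22.5% of all genes differed). Under vincristine MT1X differed by 0.82, MT2A by 0.78, MT1E by 0.75, MT1H by 0.69, MT1F by 0.68, MT1G by 0.66 and MTF1 by 0.29 (22.4% of all genes differed). SLC30A1 under vincristine, at -0.04, was not among them (adjusted p = 0.845).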

How the results depend on the processing

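Over the dose, time and chemical comparisons and untreated cells at 24 h against 4 h, the 8 genes gave 225 calls. This total includes the calls of all 8 genes in each of the 5 untreated comparisons, which involve no treatment. With experiment number as a replicate block there were 233 calls (8 gained, 0 lost). Gained dose differences were MT1F at 0.16 for 200 against 50 µM formaldehyde at 24 h and MT1H at 0.15 for 4 against 1 mM EMS at 4 h. MTF1 at 0.14 for the highest against the lowest vincristine dose at 24 h was another. The other 5 gained calls stand beside their results. The total was 212 with no filter, 215 with the mean of probe sets and 224 with quantile normalization repeated. It was 230 with all arrays in a single fit, and 188 to 196 with 1 experiment left out. Counts that moved by over 1.5 times were these. With quantile normalization repeated, formaldehyde at 4 h gave 5 calls, the formaldehyde time difference 5, colcemid at 4 h 1 and the vincristine dose difference at 24 h 2. With the mean of probe sets, formaldehyde at 24 h gave 5, MMS at 4 h 5 and the colcemid dose difference at 24 h 2. With the replicate block, the EMS dose difference at 4 h gave 2, colcemid at 4 h 1 and the vincristine dose difference at 24 h 2. No filter gave 3 for the colcemid dose difference, and all arrays in a single fit gave 5 for the formaldehyde time difference. With 1 experiment left out, formaldehyde at 4 h gave 4 to 5, its dose difference at 24 h 3 to 7, MMS at 24 h 12 to 14, EMS at 4 h 1 to 2, EMS at 24 h 4 to 5 and the colcemid dose difference at 24 h 0 to 2. Directions turned for MT1X on its other probe set under formaldehyde: -0.20 for 200 µM at 24 h, -0.37 for the time difference and -0.35 for the dose difference at 24 h, which was -0.09 with the mean of probe sets. They also turned for MT1E on its other probe set (4 mM EMS, 4 h, -0.18) and for MTF1 on another probe set (colcemid dose difference at 24 h, -0.01). By Spearman correlation 2 of the 5 genes most like SLC30A1 and 3 of the 5 most like the metallothioneins were shared with the Pearson lists. The cause of these moves was not tested.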
